A study of Bos taurus with 4 samples.

Results

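The transcripts described here are those of bovine genes that carry only a LOC symbol, the provisional name that RefSeq forms from a gene's number when no approved name exists. Members were the array probes whose platform gene symbol is a LOC number and whose spot intensity lay above the mean + 2 SD of the negative-control spots in either poly(A) fraction on at least 3 of 4 arrays. This level kept 441 of 954 LOC probes, for 429 of 905 LOC genes, beside 19453 of 43794 bovine probes of any kind. The members were therefore selected on their intensity, and which fraction a probe was detected in is given as a description. The probes' own sequences were not available to this work, so each probe is identified by its LOC symbol.

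The study asked how oocyte transcripts divide by the length of their poly(A) tail. RNA came from 4 pools of 200 denuded oocytes of Holstein cows at the germinal vesicle stage, taken from slaughterhouse ovaries, so each array stands for pooled animals. RNA depleted of ribosomal RNA was parted on beads that bind poly(A) tails into A150, labelled as tails of at least 150 nucleotides and eluted at 75 °C after a first elution at 42 °C, and A-, labelled as tails of at most 50 nucleotides and recovered from the flow-through and washes. The 2 fractions of a pool were amplified and hybridised to one 2-colour array, with dyes swapped: Cy5 marked A150 on arrays 1 and 2, and Cy3 marked it on the remaining pair. No other stage or treatment was measured, and the oocytes were not matured.

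The germinal vesicle oocyte is transcriptionally quiet and lives on stored maternal mRNA. Tail length is one of the ways in which these stores are held or used: many dormant maternal mRNAs are kept with short tails and gain tails at maturation, while others carry long ones. A LOC symbol covers several kinds of record, among them predicted protein-coding genes, non-coding RNAs and pseudogenes. Processed pseudogenes are copies of mRNAs set back into the genome, and a probe designed to one can share sequence with the mRNA it was copied from. Which transcript each LOC probe read was not tested, and a value below belongs to the probe.

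The 4 arrays differed in how many LOC probes they showed. A150 signal lay above the level for 41.6%, 17.1%, 46.0% and 60.9% of the 954 LOC probes on arrays 1 to 4, and A- signal for 51.4%, 34.3%, 28.0% and 35.6%. Array 2 showed the fewest LOC probes in A150. Over the 441 members the log2 ratios of any 2 arrays correlated with r between 0.14 and 0.44 across probes, against 0.12 to 0.32 across all kept probes. All 12 oocyte marker genes, such as ZP2 and GDF9, had a kept probe, as did 6 of 16 cumulus and granulosa markers and 3 of 8 blood and stroma markers, and the part of those other cells in the LOC signals was not tested.

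By current RefSeq type, 267 members belonged to protein-coding genes, 140 to pseudogenes, 6 to transcribed pseudogenes, 15 to lncRNA genes, 11 to genes of the type misc_RNA and 2 to immunoglobulin or T cell receptor V segments. Pseudogene probes passed the level more often than protein-coding ones, with 146 of 217 (67.3%) against 267 of 675 (39.6%), which describes the intensities that chose them. Of the lncRNA and misc_RNA probes together, 26 of 55 passed. Of the 441 members, 227 lay above the level in both fractions on at least 3 arrays, 103 of them in both on all 4. A further 92 reached 3 arrays only in A150, 38 only in A-, and 84 only when either fraction was counted.

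Among LOC probes seen in both fractions, those of pseudogenes leaned to the long-tailed fraction and those of protein-coding genes did not. The ratio is the log2 of A150 over A- signal after normalization, which centres each array's ratios near 0 at each signal level. A positive value therefore means more A150 signal, relative to A-, than the typical probe of like brightness on that array. Over the 99 pseudogene probes above the level in both fractions on at least 3 arrays, the median ratio was 0.74, 0.99, 0.22 and 0.63 on arrays 1 to 4, or 0.65 ± 0.32 (SD, n = 4 arrays). The 118 protein-coding LOC probes of the same class had medians of 0.02, -0.17, -0.24 and -0.19, or -0.14 ± 0.11 (SD, n = 4). The pseudogene median was the higher one on every array, by 0.79 ± 0.29 (SD, n = 4). For protein-coding genes with an ordinary symbol, the median over 3447 probes of the same class was -0.03 ± 0.06. All 7676 bovine probes of the class had -0.10 ± 0.04.

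The same comparison was made at higher signal. Over the 61 pseudogene and 38 protein-coding LOC probes above the level in both fractions on all 4 arrays, the medians were 0.85 ± 0.30 and -0.16 ± 0.38 (SD, n = 4), a difference of 1.01 ± 0.24. The protein-coding LOC median was 0.16 and 0.17 on arrays 1 and 2, with A150 in Cy5, and -0.56 and -0.43 on arrays 3 and 4. The cause of this change of sign was not tested. Protein-coding genes with an ordinary symbol had a median of 0.26 ± 0.24 over 898 probes of this set. Pseudogene probes were brighter than the rest, with 88 of the 146 members in the highest of 4 classes of mean signal over all kept probes. Within that class the medians were 0.85 ± 0.16 for pseudogene probes and 0.10 ± 0.33 for the 66 protein-coding LOC probes. The latter median was 0.34, 0.41, -0.25 and -0.11 on arrays 1 to 4. Protein-coding genes with an ordinary symbol had a median of 0.30 ± 0.22 over 2287 probes of that class. In the class below, the difference was 0.70 ± 0.24, while in the 2 dimmest classes, with 8 and 13 pseudogene probes, it was -0.07 ± 0.38 and 0.08 ± 0.18. The signal classes hold all members, also those that passed through 1 fraction only and so differ more easily. Over the 4 classes, 36 pseudogene and 51 protein-coding LOC probes reached 3 arrays only in A150, and 6 and 25 only in A-. The division into signal classes was chosen after the data were seen. Signal and gene type moved together here, and the part of signal in the difference was not tested beyond these classes.

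Over all 441 members, which include probes that passed through 1 fraction only and so differ more easily, the median ratio was 0.04, 0.07, 0.11 and 0.13 on arrays 1 to 4, or 0.09 ± 0.04 (SD, n = 4). All 19453 kept probes had a median of 0.01 ± 0.12, probes with another symbol 0.06 ± 0.11 and probes with no symbol -0.03 ± 0.12. The LOC median thus lay within the spread of the others between arrays. Taken by type over all members, 108 of 146 pseudogene probes (74.0%) and 114 of 267 protein-coding probes (42.7%) had a positive mean ratio, against 48.2% of all kept probes. The 146 include 36 that reached 3 arrays only in A150, of which 32 were positive, and 6 only in A-, of which 0 were. Protein-coding LOC genes with a curated transcript record had a median of -0.05 ± 0.19 over 42 probes and those with predicted transcripts only -0.03 ± 0.08 over 225, which differed by less than the spread between arrays.

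No single LOC probe passed the test in the fit over all kept probes. With limma against a ratio of 0 and Benjamini-Hochberg adjustment over 19453 probes, 0 LOC probes had an adjusted p under 0.05 towards A150, where 0% of all kept probes passed, and 0 towards A-, where 0.0617% passed. The smallest adjusted p of a LOC probe was 0.0555. At an unadjusted p under 0.05, limma gave 64 LOC probes towards A150 (14.5%, against 8.03% of all kept probes) and 19 towards A- (4.31%, against 5.45%). Of the 64, 42 were pseudogene probes (28.8% of the 146) and 21 protein-coding ones (7.87% of the 267). The protein-coding share was thus near that of all kept probes. The ratio was positive on all 4 arrays for 79 LOC probes (17.9%, against 12% of all kept probes) and negative on all 4 for 39 (8.84%, against 10.1%). These counts run over members that passed through 1 fraction as well, so they describe the list and are not a test of it.

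When the fit was restricted to the 2030 bovine probes above the level in both fractions on all 4 arrays, calls appeared. Of the 103 LOC probes among them, 10 passed towards A150 (9.71%) and 2 towards A- (1.94%), with limma and an adjusted p under 0.05. All probes of that set passed at 5.71% towards A150 and 6.31% towards A-. Of the 10, 9 were of pseudogenes or transcribed pseudogenes, as were 61 of the 103 LOC probes tested, and the other was LOC515042. The 2 towards A- were LOC788724 and LOC521580.

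LOC619156, a pseudogene that overlaps MED14, a gene for a Mediator subunit, had the smallest p on the A150 side among probes seen in both fractions. Intensities are given as scanned, before background correction and normalization, and the 2 dyes of an array are not on one scale, so the ratio is the normalized measure. From array 1 to array 4 its spots read 10832, 12236, 12500 and 14404 in A150, against 2066, 2993, 3289 and 2657 in A-. The 2 sets of scanned values did not overlap. Here and below, overlap of scanned values describes probes chosen for their ratio and ignores the pairing within arrays, so it is no test. The ratio of LOC619156 was 2.36 ± 0.50 (SD, n = 4), or 5.14-fold. Its limma adjusted p was 0.0707 over all kept probes and 0.017 in the restricted fit. LOC785477, a pseudogene that overlaps CLASP2, a gene for a microtubule-binding protein, read 14246, 16128, 14193 and 10855 in A150 and 1763, 3656, 2548 and 3375 in A-. Its ratio of 2.50 ± 0.79 ranged from 1.54 on array 4 to 3.47 on array 1. The brightest kept CLASP2 probe had a mean ratio of -0.26, so the mean ratios of the 2 overlapping genes had opposite signs. The CLASP2 value was small, within the quartiles of all kept probes, -0.37 and 0.37.

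LOC515042 was the protein-coding gene of this group, with a curated transcript record. It overlaps LOC101905607 and lies next to CELA3B, a pancreatic elastase gene. Its intensities were 34056, 13244, 36463 and 34679 in A150 and 8840, 5581, 9509 and 10421 in A-. The ratios of 1.66, 1.32, 1.58 and 1.73 gave 1.57 ± 0.18 (SD, n = 4), among the narrowest spreads of the named probes, with a limma adjusted p of 0.0859 over all kept probes and 0.0467 in the restricted fit. The A150 intensity of array 2 was less than on the other arrays, yet all 4 A150 values lay above all 4 A- values.

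LOC100294880, between BARD1 and ABCA12, and LOC100297121, between CD55 and CR2, are pseudogenes at different places in the genome whose probes gave nearly the same profile. LOC100294880 had ratios of 2.44, 3.20, 1.17 and 3.01, and LOC100297121 had 2.24, 3.07, 0.96 and 2.70. In both, the A- intensity was high on array 3, at 10340 and 9450, against 2657 to 4517 on the other arrays. The means were 2.45 ± 0.92 and 2.24 ± 0.92 (SD, n = 4). Whether the 2 probes share sequence was not tested.

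The remaining probes on the A150 side by this rule were LOC784738, LOC100337442, LOC100296205 and LOC783726, all pseudogenes, and LOC100138864, a transcribed pseudogene between ITIH2 and ITIH5. LOC100138864 read 24818, 13180, 33535 and 25676 in A150 and 5731, 4400, 12246 and 7999 in A-, a ratio of 1.61 ± 0.37. The groups did not overlap, since its lowest A150 value was above its highest A- value. LOC784738 had a ratio of 2.19 ± 0.73, LOC100337442 1.83 ± 0.67, LOC100296205 2.16 ± 0.91 and LOC783726 1.90 ± 0.76 (SD, n = 4 for each). LOC100296205, which overlaps the bicarbonate transporter gene SLC4A8, stood apart on array 1, with 3.52 against 1.66 to 1.79 elsewhere. LOC783726 overlaps HELB, a DNA helicase gene whose brightest kept probe had a mean ratio of -0.26.

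On the A- side the probe with the smallest p was that of LOC788724, a protein-coding gene known from predicted transcripts only, which overlaps FMO5, a flavin monooxygenase gene. It read 7209, 3055, 1950 and 5762 in A150 and 36330, 20947, 30168 and 35805 in A-. Every A- value was above every A150 value, the ratios were -2.72, -3.66, -5.02 and -2.76, and the mean was -3.54 ± 1.08 (SD, n = 4), or 11.6-fold towards A-. Its limma adjusted p was 0.0764 over all kept probes and 0.0112 in the restricted fit. The brightest kept FMO5 probe had a mean ratio of -0.19.

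LOC521580, a lncRNA gene whose span covers tRNA genes and the histone gene H4C8, had the lowest mean ratio of all members. In A- it was nearly constant, at 36566, 33850, 33316 and 32535, while in A150 it read 1691, 21951, 1199 and 3366. Array 2 stood apart with a ratio of -0.88, against -4.82, -6.39 and -3.50 on arrays 1, 3 and 4, and the mean was -3.90 ± 2.33 (SD, n = 4). The limma adjusted p was 0.164 over all kept probes and 0.0218 in the restricted fit. Which of the transcripts of this span the probe read was not tested.

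Non-coding RNA genes supplied 3 of the 10 probes named on the A- side. Besides LOC521580 these were LOC618297, a misc_RNA gene next to the proteasome gene SEM1, and LOC789694, a misc_RNA gene next to the integrin gene ITGB3. LOC789694 also overlaps LOC132343094. LOC618297 read 13209, 3676, 10611 and 18754 in A150 and 35657, 32924, 27558 and 30604 in A-, a ratio of -2.09 ± 1.35, and LOC789694 had a ratio of -1.83 ± 0.83 (SD, n = 4). Over all 10 lncRNA and misc_RNA probes seen in both fractions, 3 were negative and 0 positive on all 4 arrays, against 14.6% and 10.9% of all kept probes seen in both fractions, and these 3 are the probes named above for having 1 sign. The median was -0.56 ± 0.74, which spans 0. The array medians were -1.21, -1.05, 0.42 and -0.39, so array 3 alone was positive.

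The other probes named on the A- side were 5 of protein-coding genes and 1 of a pseudogene. LOC787289, the pseudogene, lies between PTX4 and TELO2 and had a ratio of -1.17 ± 0.69, and its 2 sets of intensities overlapped, since A150 read 4224 and A- 3989 on array 4. LOC100336734 had -1.67 ± 0.94, LOC619094, which overlaps DIP2B, -1.55 ± 0.90, and LOC100294980 -2.89 ± 2.31 (SD, n = 4 for each). The last of these rested most on array 1, with -6.08 against -0.93 to -3.05 on the other arrays. LOC508153 and LOC515697, both with curated transcripts, had small but even ratios of -0.77 ± 0.18 and -0.88 ± 0.36 at intensities not far above the level. LOC515697 overlaps LOC132345316, and LOC100336734 overlaps LOC132342727. The limma adjusted p of these 6 probes lay between 0.183 and 0.27 over all kept probes.

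By side, 9 of the 10 probes named towards A150 were of pseudogenes or transcribed pseudogenes, and 1 of the 10 named towards A-. Such probes were 99 of the 227 LOC members seen in both fractions on at least 3 arrays. Among those 227, they were 34 of the 45 positive on all 4 arrays and 3 of the 27 negative on all 4. The rule that named the probes used the ratio, so the split describes the named probes. In the restricted fit, 8 of the 10 on the A150 side were present and all 8 passed, while 4 of the 10 on the A- side were present and 2 passed. Of all 2030 probes in that fit, 5.71% passed towards A150 and 6.31% towards A-. The restricted fit used the same ratios that named these probes, so their passing is no second test of them.

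The brightest LOC probes had ratios near 0 or below it. Whether their intensities met an upper limit of the scan was not tested. LOC539166 read 35688, 36766, 34548 and 33747 in A150 and 22362, 34855, 38547 and 37621 in A-, and its ratio was -0.10 ± 0.32. LOC618633 had a ratio of -0.40 ± 0.36, LOC100300095 -0.78 ± 0.53 and LOC100299712 -0.87 ± 0.63 (SD, n = 4 for each). All 4 are protein-coding by type, and their limma adjusted p lay between 0.348 and 0.912. The mean ratio of LOC539166 turned positive under some other settings, whereas LOC100300095 and LOC100299712 were negative on every array.

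Some members reached the level on at least 3 arrays in 1 fraction but not in the other, which makes a ratio away from 0 more likely by construction. Of the 92 such members of A150, 76 had a positive mean ratio. LOC100295873, a pseudogene that overlaps the centrosomal gene CEP76, had the smallest adjusted p of all LOC probes, 0.0555 by limma. It read 11134, 10016, 8712 and 3894 in A150 and 1561, 2760, 1611 and 596 in A-, and its ratio was 2.98 ± 0.32 (SD, n = 4). A- was above the level of its array on 2 of 4 arrays, so the size of the ratio rests in part on signal at background, and it was 2.32 without background correction and 2.35 as the mean of the authors' deposited ratios. LOC100335253, a pseudogene that overlaps the ubiquitin ligase gene TRIM9, was above the level in A- on 1 array and had a ratio of 3.04 ± 1.84, which was 1.65 without background correction, 1.75 as the mean of the authors' deposited ratios, 4.47 on arrays 1 and 2 and 1.62 on arrays 3 and 4. LOC784773, a pseudogene next to IRS4, was above it on 2 arrays and had 2.29 ± 1.04, with 1.75 without background correction and 1.66 as the mean of the authors' deposited ratios. The brightest kept probe of TRIM9 had a mean ratio of -0.25.

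Among the members that reached 3 arrays in A- but not in A150, the probes with the highest signal were those of LOC100296255, LOC513767 and LOC100139826, and none had an even ratio. LOC100296255 ran from 1.15 on array 1 to -2.54 on array 4, LOC513767 from 1.47 on array 1 to -3.58 on array 2, and LOC100139826 from 0.11 on array 1 to -4.37 on array 4. The means of -0.46 ± 1.56, -0.89 ± 2.12 and -1.44 ± 2.10 (SD, n = 4) were therefore smaller than their spread.

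A probe never above the level in a fraction has only a bound there. Of the members, 9 were never above the level in A-, with A150 at least 1.30-fold to at least 3.87-fold higher against, on each array, the higher of the probe's own signal and the lowest signal above the level. The furthest was LOC783202, at least 3.87-fold, followed by LOC783653 and 1 probe of the lncRNA gene LOC100174924. The other kept probe of LOC100174924 was brighter, lay above the level in A- on all 4 arrays and had a ratio of -0.06 ± 2.04 (SD, n = 4). Another 4 members were never above the level in A150, with A- at least 1.26-fold to at least 1.58-fold higher.

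The intensity threshold passes through a continuum. LOC100297099 and LOC532036 lay just inside, their third-highest array reaching 1.002 and 1.003 times the level, with ratios of 1.60 ± 1.77 and -0.20 ± 0.62. LOC507017 and LOC783253 lay just outside at 0.998 times the level, with -0.08 ± 0.62 and 1.58 ± 0.85. The 71 pseudogene probes that were not kept had a median ratio of 0.01 ± 0.09, and the 408 protein-coding ones -0.05 ± 0.07 (SD, n = 4).

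For 12 LOC genes 2 probes were kept, and for no gene more. The mean ratios of the 2 probes had the same sign in 6 genes and opposite signs in 6, with a median gap of 0.66. LOC784704, a pseudogene, had 1.76 ± 0.21 at one probe, with 1.66, 1.62, 1.69 and 2.08 on the arrays, and 1.16 ± 1.30 at the other. Both probes of the pseudogene LOC614114 were also positive on average, at 0.56 ± 0.87 and 1.27 ± 1.16. LOC100301263, a protein-coding gene, had the largest gap, 2.72, with 1.66 ± 1.39 at one probe and -1.06 ± 0.97 at the other (SD, n = 4 for each). All 12 genes tie for the most kept probes, and these 3 were picked after their values were seen.

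Many LOC genes share their place with another gene. Of the 429 member genes, 153 (35.7%) overlapped another annotated gene in the RefSeq table of the current assembly. Counted as pairs of overlapping genes, 90 had a kept probe for the partner too, and the mean ratios of the member and of the partner's brightest probe lay on the same side of 0 in 40. Of 15 pairs of members that neighbour each other on a chromosome, 9 lay on the same side. LOC100297099 and LOC100297779, which overlap each other, had 1.60 and 1.63. The counting does not use the strand of the probes, and overlapping transcripts cannot be told apart by position.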

How the data were processed

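The deposited scanner files hold spot intensity and local background per dye, per the file headers. A deposited table of log2 ratios by the authors, correlated at r = 0.963 to 0.991 with log2 A150 over A- (column medians -0.01 to 0.02, their normalization not given in the sources used here), was used as an alternative only. Spot means were corrected for median local background by normexp (offset 50), normalized by loess within arrays (control spots at weight 0) and turned to A150 over A- by the labelled dyes, with limma 3.58.1 in R 4.3.3. A pool's fractions share an array, so pairing is in the ratio. Ratios were tested against 0 with lmFit and eBayes (Benjamini-Hochberg, threshold 0.05, all kept bovine probes), with 3 residual degrees of freedom before moderation. The fit was tested on simulated data, and no result of that test is given here. The 4 arrays limit precision. The p-values rest on a spread that holds both pool and array differences.

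Bounds compare normalized channel means. The 22 rows without a probe name were left out. All 905 LOC symbols matched the RefSeq table (assembly ARS-UCD2.0), used for gene type and neighbours only, since the planned classes need descriptions it does not hold. Probe sequences were not analysed here. Named probes were, per side, the 10 with the smallest p among those above the level in both fractions on at least 3 arrays with 1 sign on all 4; the 4 brightest; the smallest p per gene type; the 3 brightest per single fraction; genes with most kept probes; and those beside the threshold. Members, lists and tests were chosen with earlier results of these data known.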

Additional observations from a re-analysis of the deposited data

Results flagged for a closer look

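Each named probe's 4 ratios and the 4 array medians of the LOC groups were examined for an array far from the others, 34 sets in all, of which chance would mark about 1 in 20. One was marked, LOC100296205, whose ratio of 3.52 on array 1 lay far above the 1.66 to 1.79 of arrays 2 to 4. Without array 1 its mean ratio was 1.70.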

How the results depend on the processing

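Medians in this section run over all members by type, 146 pseudogene and 267 protein-coding probes in the main setting. They include probes that passed through 1 fraction only, so a positive median is in part built in. The pseudogene LOC median stayed positive, from 0.43 to 1.07, in every setting run. Its difference from the protein-coding LOC median ran from 0.43 to 1.19. The settings were not rerun on the 99 and 118 probes seen in both fractions on at least 3 arrays. LOC probes called by limma towards A150 and A- numbered 0 and 0 in the fit over all kept probes, 13 and 2 without normalization within arrays, 10 and 2 with only probes above the level in both fractions on all 4 arrays, and 4 and 1 on single channels with no replicate block. Mean local background, added after seeing the data, gave 1 towards A150 (LOC100295873, adjusted p 0.0457). All other settings, each array left out included, gave 0, where unadjusted counts with an array left out were 46 to 61 and 10 to 13 (without arrays 1 and 4, 10 and 11 towards A-). The both-fraction filter left 103 members, with unadjusted counts of 27, 4 and, for pseudogenes, 22, and no filter 954. The median of all LOC members moved to 0.048 without background correction, 0.14 with 3 SD, 0.16 with spot medians, 0.045 in the authors' deposited ratios, 0.52 with the both-fraction filter and -0.27 without normalization, where all kept probes shifted to -0.41. The protein-coding median moved to -0.47 and -0.16 without normalization and with the both-fraction filter, and was 0.05 on arrays 3 and 4, 0.0061 without array 2 and 0.00048 with spot medians. The pseudogene median was 1.07 with median centring and 0.85 with the both-fraction filter, and the difference 1.19 with median centring or no normalization and 1.01 with that filter. With median centring or no normalization, 10 of the 12 genes had 2 probes of one sign. Ratios that turned sign were those of LOC539166 (0.47 with median centring, 0.13 without normalization, 0.083 on arrays 1 and 2, -0.23 to 0.033 with an array left out, positive without array 3), LOC618633 (0.19 with median centring), LOC100296255 (0.65 on arrays 1 and 2, -0.995 to 0.23 with an array left out, positive without array 4), LOC513767 (-1.67 to 0.012, positive without array 2) and LOC100139826 (0.077 on arrays 1 and 2). The cause was not tested. The ratio within an array is itself the paired measure, and the single-channel fit is the unpaired one. Intensity near background limits the dim members.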

Other observations

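Likeness between probes was measured as the root mean square difference of their 8 log2 spot intensities, a measure chosen after the data were seen. The 8 values share arrays and dyes, and brightness weighs heavily in them. Over the 5252 pairs of different genes among the 103 LOC probes above the level in both fractions on all 4 arrays, the median difference was 1.52. The closest pair was LOC783459 and LOC783382, both pseudogenes, at 0.09, with mean ratios of -0.65 ± 1.48 and -0.62 ± 1.35 (SD, n = 4) and their lowest values, -2.77 and -2.53, on array 3. LOC514121 and LOC619026, both protein-coding, followed at 0.10. The third, at 0.15, was the pseudogene LOC784446 with the protein-coding LOC100299845, whose ratios were highest on array 3, at 1.88 and 2.00, and lowest on array 2, at -0.86 and -1.10. Whether the probes of a pair share sequence was not tested.

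By the same measure, the named LOC probes were set beside 9330 kept probes with an approved symbol. LOC784738 lay closest to FDPS, an enzyme of the mevalonate pathway, at 0.19, with mean ratios of 2.19 for the LOC probe and 2.49 for FDPS. LOC100296205 lay closest to the ribosomal protein gene RPL36 at 0.23, with 2.16 and 2.00. On the A- side, the closest matches were LOC508153 with SNX18 at 0.185, with -0.77 and -0.79, and LOC515697 with TP53BP1 at 0.199, with -0.88 and -1.02. LOC618297 lay much further, at 0.56, from its nearest probe, with -2.09 and -1.38. That probe was of BTG4, which in mouse oocytes links maternal mRNA to deadenylation. A link between the 2 was not tested. Still further from their nearest probes were LOC788724, at 0.64 from EIF4E, LOC100294980, at 0.68 from ANKRD17, and LOC521580, at 1.25 from SATB1. A close probe is found for most profiles among so many, and the values are given as descriptions.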
